A study of Mus musculus with 10 samples.

Results

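The 6 genes described here encode 2 opioid peptide precursors, Penk and Pdyn, and the 4 receptors of the family, Oprm1, Oprd1, Oprk1 and Oprl1. They were taken as the genes of these names among the probe sets annotated to exactly 1 symbol, and held 82 of the 318760 probe sets so annotated (Penk is named Penk1 in the array's annotation). All 6 were measured at the gene level, among 16367 genes. The series compared the amygdala of neuropsin-/- knockout mice (5 arrays) with that of wild-type C57BL/6 mice (5 arrays). All animals were 3 months old, and 12 generations of backcrossing had put the mutation on C57BL/6, so the genotypes share that background. Neuropsin is the secreted serine protease encoded by Klk8. Each array was hybridised with RNA from 3 animals, read here as separate pools, and single animals cannot be told apart within one. Depth has no meaning on these arrays, whose number limits the precision.

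Opioid peptides are cut from large precursor proteins and act on receptors that couple to inhibitory G proteins, lowering cyclic AMP, opening potassium channels and closing calcium channels. In the amygdala, enkephalin and dynorphin are made by inhibitory neurons, mainly of the central nucleus and the intercalated cell groups, and the system is known for its part in fear, reward and pain. Enkephalin neurons are also abundant in the striatum, which adjoins the amygdala in a coronal slice.

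Of the 6 genes, 4 have start regions in the RefSeq promoter table (build GRCm38.p6), and none lies on chromosome 7, which carries Klk8. Penk and Oprd1 are on chromosome 4, Pdyn and Oprl1 on chromosome 2, Oprk1 on chromosome 1 and Oprm1 on chromosome 10. The start regions of a ligand gene and of 2 receptor genes are shown, because they differ in base composition. Among these 3 only the Oprd1 window holds a searched motif. Each window runs from 250 bases before a start to 50 bases after it, 5′ to 3′ on the gene's own strand, and capitals mark the GC box GGGCGG on either strand.
Pdyn: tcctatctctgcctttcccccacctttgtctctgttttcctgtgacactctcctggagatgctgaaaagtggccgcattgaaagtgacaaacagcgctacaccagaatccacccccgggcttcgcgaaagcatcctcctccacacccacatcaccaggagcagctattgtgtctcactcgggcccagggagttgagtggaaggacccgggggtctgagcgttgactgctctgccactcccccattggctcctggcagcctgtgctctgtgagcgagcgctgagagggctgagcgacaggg
Oprm1: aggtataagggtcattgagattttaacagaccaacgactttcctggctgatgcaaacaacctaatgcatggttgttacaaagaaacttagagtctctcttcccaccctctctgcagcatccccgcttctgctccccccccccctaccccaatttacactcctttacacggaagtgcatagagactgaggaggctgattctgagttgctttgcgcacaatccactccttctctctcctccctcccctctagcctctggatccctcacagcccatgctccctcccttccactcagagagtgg
Oprd1: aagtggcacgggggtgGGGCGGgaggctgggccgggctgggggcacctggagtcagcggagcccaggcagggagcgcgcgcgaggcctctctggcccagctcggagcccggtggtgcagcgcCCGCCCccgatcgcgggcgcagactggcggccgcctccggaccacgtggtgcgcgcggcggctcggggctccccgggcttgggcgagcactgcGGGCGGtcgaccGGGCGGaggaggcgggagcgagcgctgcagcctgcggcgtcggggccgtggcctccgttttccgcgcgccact
The Pdyn window (chr2:129699889-129700188, minus strand), 1 of 2 listed, is 59% G and C, and the other is 44.3%. The Oprm1 window (chr10:6788320-6788619, plus strand), 1 of 3 listed for that gene, is 52%. The Oprd1 window (chr4:132144437-132144736, minus strand) is 79.3% G and C, with 43 CG dinucleotides and 4 GC boxes, where the median of 32851 windows is 52.7%. Of all windows, 35.7% hold a GC box. The cyclic AMP response half-site TGACG, held by 20.8% of windows on either strand, the AP-1 site TGANTCA (7.81%) and the letters TATAAA (13.6%) were not found in these 3 windows. The searched motifs do not overlap one another there, and a match or its absence says nothing of a factor's binding. Among the windows not shown, 1 of those listed for Oprl1 holds TATAAA on the opposite strand.

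Wild-type arrays 4 and 5 stood apart on the first principal component of all gene levels (35.5% of the variance), at 20.5 and 23.5, against -14.2 to -2.54 on the other wild-type arrays. Knockout arrays 1 to 5 were at -10.3, -2.43, -11.7, 7.45 and 3.14. In each genotype numbers 4 and 5 were thus the highest, and numbers 1 and 3 the lowest. The targeted gene Klk8, as the mean of its 9 probe sets, was at 5.02 ± 0.29 in the knockout and 5.17 ± 0.27 in wild type (SD, n = 5 each; exact two-sided permutation p = 0.413), and the labels do not say which exons are missing. Both Klk8 means lay near the median of all probe sets (4.94), so a loss had little room to show and the comparison cannot decide on it. Of 10 markers listed for the central and medial amygdala 9 were measured, while Crh had fewer than 3 probe sets above the filter. Lists of neighbouring tissues were measured as fully (11 of 13 for the striatum, 10 of 13 for the hypothalamus), so the count does not check the dissection. In bulk tissue, fewer cells of a type and less RNA per cell cannot be told apart.

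No member passed the test between the genotypes at the gene level, and the precursor genes had the most negative differences. A gene level is the mean log2 value of the gene's probe sets whose mean over the arrays lies above the median of all probe sets (4.94). Differences are knockout minus wild type, from a limma fit over all 16367 genes with Benjamini-Hochberg adjusted p and a threshold of 0.05. Of the 6 members 0 passed, as 0.0244% of all genes did, and the smallest adjusted p among members was 0.711. At an unadjusted limma p under 0.05 there was 1 member, Penk, where 6.98% of all genes reached that level. The median difference over the 6 members was -0.11, against 0.00 over all genes, and 5 of 6 members had a negative difference, as 50.7% of all genes did.

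Penk encodes proenkephalin, the precursor of Met- and Leu-enkephalin. Its gene level was 10.26, 10.005, 10.30, 9.36 and 10.05 on knockout arrays 1 to 5, against 10.47, 10.41, 10.30, 10.28 and 10.12 on wild-type arrays 1 to 5. Knockout array 4 was the lowest of all 10, and the genotypes overlapped. The means were 9.99 ± 0.38 in the knockout and 10.32 ± 0.14 in wild type (SD, n = 5 each). The log2 difference was -0.32 (SE 0.15, 95% interval -0.64 to -0.002, limma adjusted p = 0.711), or 1.25-fold. Without knockout array 4 the difference for Penk was -0.16 (adjusted p = 0.797), and taken as a median of probe sets it was -0.18 (adjusted p = 0.92).

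Pdyn encodes prodynorphin, the precursor of the dynorphins, which act mainly on the kappa receptor. The gene was at 6.99, 6.85, 6.88, 6.37 and 6.68 on knockout arrays 1 to 5, against 7.36, 7.24, 7.00, 6.83 and 6.67 on wild-type arrays 1 to 5. Wild-type arrays 1 to 3 were above every knockout array, wild-type array 5 was below all knockout arrays but number 4, and knockout array 4 was again the lowest. Pdyn averaged 6.75 ± 0.24 in the knockout and 7.02 ± 0.28 in wild type (SD, n = 5 each), and differed by -0.27 (SE 0.14, 95% interval -0.56 to 0.03, limma adjusted p = 0.721). Without knockout array 4 the Pdyn difference was -0.17 (adjusted p = 0.831), and without wild-type arrays 4 and 5 it was -0.44 (adjusted p = 0.276). Here and below, leaving out wild-type arrays 4 and 5 kept knockout arrays 4 and 5, so array number and genotype are mixed in that setting.

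**Figure D1:**
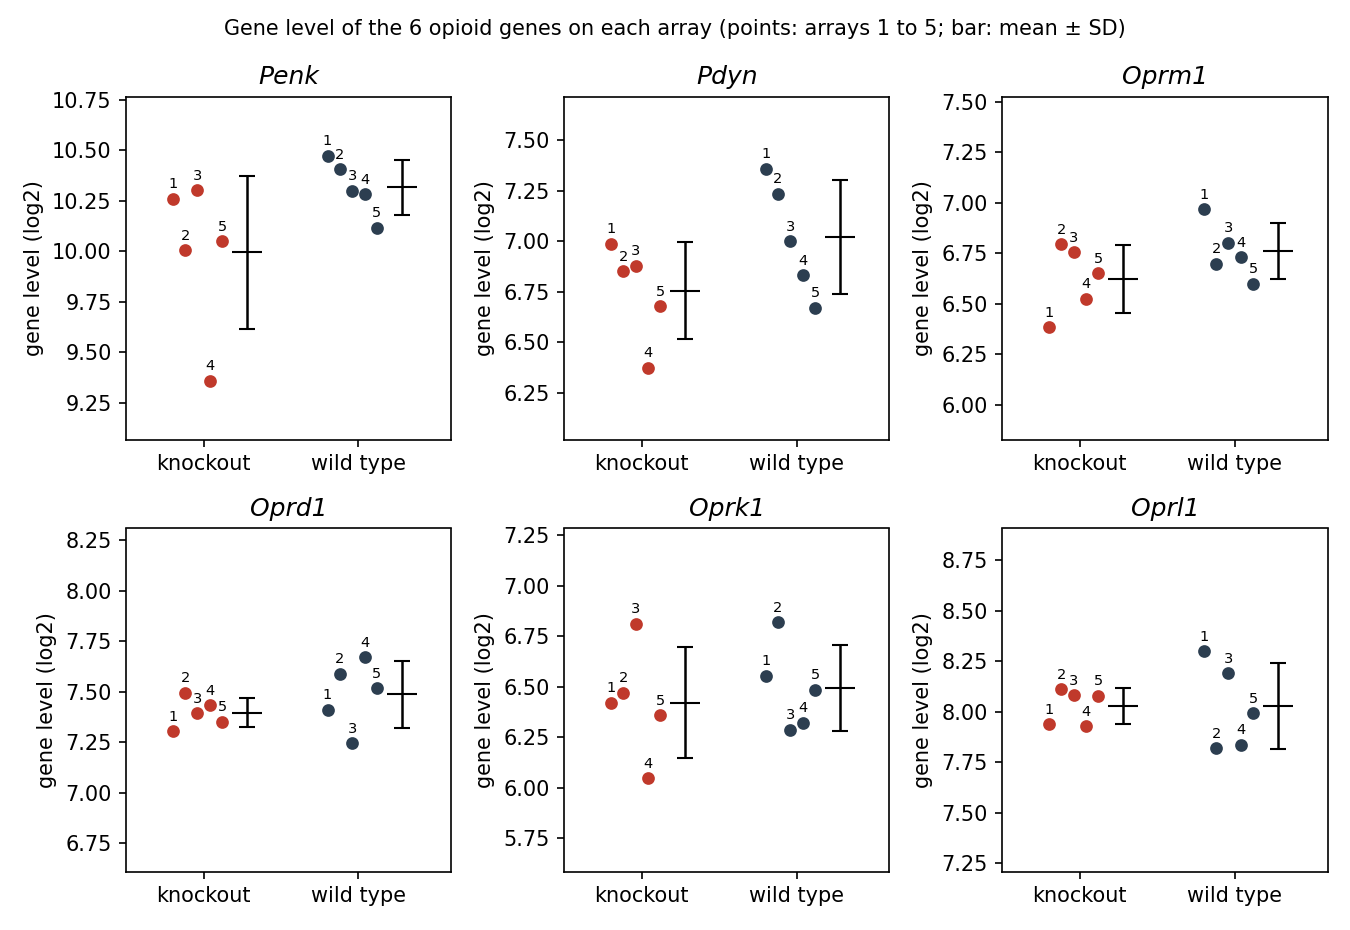
Gene level (log2) of each opioid gene on the 5 knockout and the 5 wild-type arrays, with array numbers beside the points and bars for the mean ± SD; every panel spans the same range. Knockout array 4 is the lowest array for Penk (9.36), Pdyn (6.37) and Oprk1 (6.05), and the genotypes overlap in all 6 panels.

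Among the receptors the differences were smaller. Oprm1 encodes the mu receptor, the main target of morphine. Its level was 6.38, 6.79, 6.75, 6.52 and 6.65 on knockout arrays 1 to 5, against 6.97, 6.70, 6.80, 6.73 and 6.60 on wild-type arrays 1 to 5. Knockout array 1 was the lowest and wild-type array 1 the highest, with the other 8 arrays mixed between them. The low level on knockout array 1 includes 2 probe sets with means near the filter (5.24 and 5.04). Probe set 4654242 was at 2.22 on that array and 4.54 to 6.61 on the others. Probe set 5324948 was at 3.16 there and 4.36 to 5.85 on the others. The first had a difference of -0.79 (SE 0.64, limma adjusted p = 0.906). The Oprm1 difference was -0.14 (SE 0.10, 95% interval -0.34 to 0.07, limma adjusted p = 0.8), or -0.08 without knockout array 1 and -0.09 without wild-type array 1.

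Oprd1 encodes the delta receptor, which binds enkephalins. It was at 7.31, 7.50, 7.40, 7.43 and 7.35 on knockout arrays 1 to 5, against 7.41, 7.59, 7.25, 7.67 and 7.52 on wild-type arrays 1 to 5. The knockout arrays lay inside the range of the wild-type arrays. The Oprd1 difference was -0.09 (SE 0.09, 95% interval -0.28 to 0.09, limma adjusted p = 0.854), and it was -0.15 when wild-type array 3 was left out, -0.04 when number 4 was, and -0.02 when numbers 4 and 5 were.

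Oprk1 encodes the kappa receptor, on which dynorphin acts. Its values were 6.42, 6.47, 6.81, 6.05 and 6.36 on knockout arrays 1 to 5, against 6.56, 6.82, 6.29, 6.32 and 6.49 on wild-type arrays 1 to 5. Knockout array 4 was below every wild-type array, and knockout array 3 was level with the highest of them. The Oprk1 difference was -0.07 (SE 0.13, 95% interval -0.36 to 0.21, limma adjusted p = 0.929), and its sign turned without knockout array 4 (0.02) or wild-type array 2 (0.0093).

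Oprl1 encodes the receptor of nociceptin, a related peptide that does not bind the classical opioid receptors. It was at 7.94, 8.11, 8.08, 7.93 and 8.08 on knockout arrays 1 to 5, against 8.30, 7.82, 8.19, 7.84 and 7.99 on wild-type arrays 1 to 5. All knockout arrays lay inside the wild-type range. The mean was 8.03 ± 0.09 in the knockout and 8.03 ± 0.21 in wild type (SD, n = 5 each), with a 95% interval of the difference of -0.21 to 0.21 (limma adjusted p = 1.00). For Oprm1, Oprd1 and Oprl1 the intervals reached at most 0.34 on the log2 scale in either direction.

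**Figure D2:**
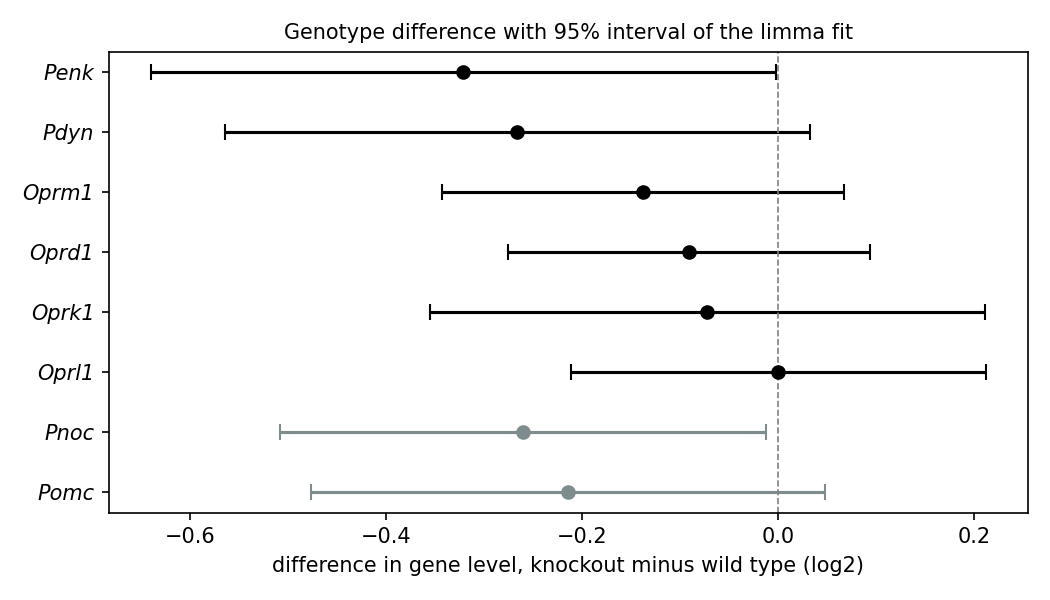
Difference in gene level (log2, knockout minus wild type, x axis) with its 95% interval for the 6 genes (black) and for the other opioid precursor genes Pnoc and Pomc (grey). The interval includes 0 for all genes shown except Penk (-0.64 to -0.002) and Pnoc (-0.51 to -0.01), and none passed after adjustment over all genes.

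Over the 10 arrays Penk and Pdyn were the pair of members with the highest correlation. Their levels gave a Pearson r of 0.865 and a Spearman rho of 0.842, a description over arrays that share whatever tissue each pool held. By Pearson r, Penk and Oprk1 followed (r = 0.693, rho = 0.6), and by Spearman rho, Oprm1 and Oprl1 did (r = 0.631, rho = 0.697). Oprd1 and Oprl1 ran opposite to each other (r = -0.599, rho = -0.564). The remaining pairs had an r of -0.02 to 0.63 and a rho of -0.24 to 0.58.

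Over all 16367 genes, the gene most like Penk across the 10 arrays was Scn4b (r = 0.948), a sodium channel subunit gene, followed by Adcy5 (r = 0.934), an adenylyl cyclase of striatal neurons, and Drd2 (r = 0.928), the D2 dopamine receptor. Without the arrays farthest from the Penk median (knockout arrays 4 and 2) these r values were 0.855, 0.83 and 0.831. The gene most like Pdyn was Opalin (r = 0.969), an oligodendrocyte gene, followed by Idnk (r = 0.968) and Sgpp2 (r = 0.964). Without wild-type array 1 and knockout array 4 they were 0.903, 0.904 and 0.921. For the receptors the leading genes were Astn2 for Oprm1 (r = 0.931), Nlrc5 for Oprd1 (r = 0.976), Parp14 for Oprk1 (r = 0.988) and Sap18 for Oprl1 (r = 0.957). These are the highest values of 16367 genes over only 10 arrays, and are given as descriptions.

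Markers of the striatum, of other tissues and of amygdala cell groups are given beside the precursor genes. Of 13 striatal markers listed, 11 were measured, 10 of them with a negative difference (median -0.17) and none past the threshold. The mean level of the 11 was 7.69, 7.64, 7.72, 7.24 and 7.70 on knockout arrays 1 to 5, against 7.82, 7.92, 7.74, 7.75 and 7.57 on wild-type arrays 1 to 5. Knockout array 4 was the lowest for these markers too, and the genotypes overlapped. Rasd2, a small GTPase of the striatum, differed by -0.23 (SE 0.08, limma adjusted p = 0.693), and Isl1, a transcription factor of striatal projection neurons, by -0.35 (SE 0.15, limma adjusted p = 0.7), or -0.22 without knockout array 4 and -0.53 without wild-type arrays 4 and 5. The 3 markers of intercalated cells had a median difference of -0.04, with means of 7.48 to 7.81 in the knockout and 7.57 to 8.01 in wild type. The part of these cells in the Penk and Pdyn values was not tested.

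**Figure D3:**
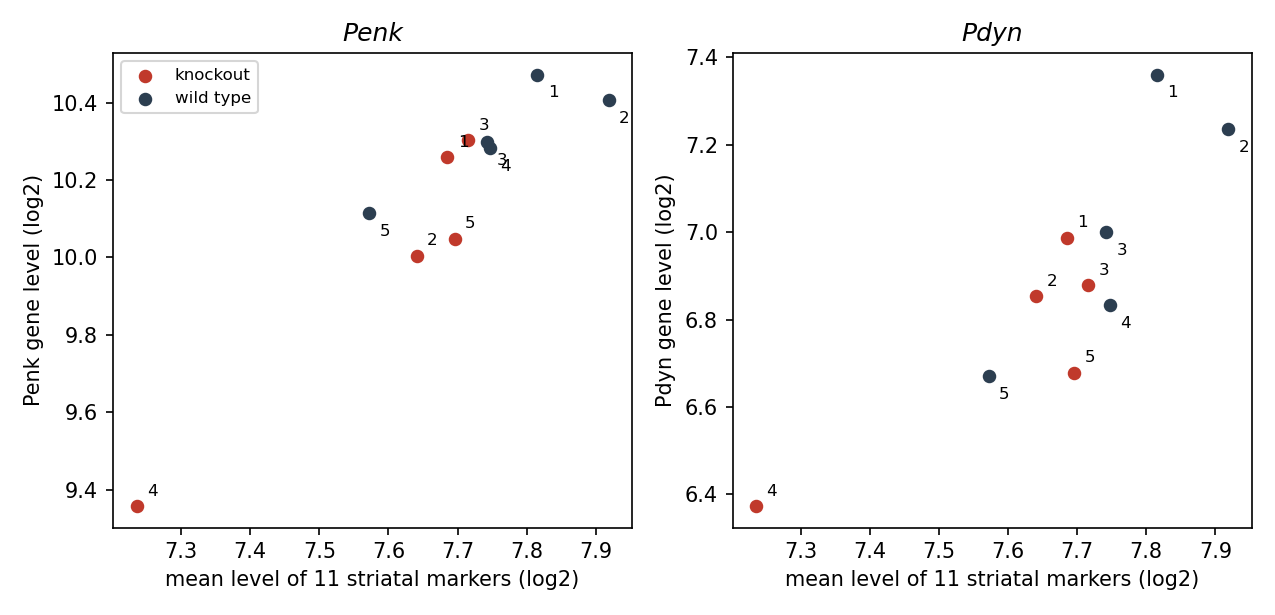
Gene level of Penk (left) and Pdyn (right) against the mean level of 11 striatal markers on the same array (all log2), with array numbers beside the points, knockout in red and wild type in dark blue. Knockout array 4 is at the lower left in both panels (7.24 on the x axis), and wild-type arrays 1 and 2 are at the upper right.

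Markers of neighbouring tissues, of myelin and of the amygdala nuclei themselves are given next, and none passed in the main fit. Of 10 measured hypothalamic markers 9 had a negative difference (median -0.24), and 7 of the 10 had an unadjusted limma p under 0.05, against 6.98% of all genes. Their mean ran from 6.14 to 6.40 on the knockout arrays, below 6.53 to 6.95 on the wild-type arrays. The gene of melanin-concentrating hormone, Pmch, was at 4.34 to 4.93 in the knockout and 5.35 to 7.59 in wild type, a difference of -1.88 (SE 0.39, limma adjusted p = 0.27). All its knockout values lay below the filter level of 4.94. The filter uses the mean over all arrays, so the wild-type values helped its probe sets to pass. Without the intensity filter the Pmch difference was -1.43 (limma adjusted p = 0.44). Pmch was measured in 20 alternatives, and was not with the intensity filter at the 75th percentile. It passed in 3: array weights (adjusted p = 0.0456), leaving out wild-type array 5 (0.0457), and leaving out wild-type arrays 4 and 5 together (1.73e-05). The last of these kept knockout arrays 4 and 5, so array number and genotype are mixed in it. The oxytocin gene Oxt differed by -0.63 (SE 0.16, limma adjusted p = 0.446), again with no overlap. Myelin markers had a negative difference in 9 of 9 (median -0.28). Their mean was 8.66, 8.59, 8.54, 8.24 and 8.53 on knockout arrays 1 to 5, against 9.17, 9.11, 8.82, 8.65 and 8.25 on wild-type arrays 1 to 5. Wild-type arrays 1 and 2 were the highest and knockout array 4 and wild-type array 5 the lowest, as for Pdyn. Among them were Fa2h at -0.33 (SE 0.13; -0.54 without wild-type arrays 4 and 5) and Cldn11 at -0.28 (SE 0.11). Markers of the central and medial amygdala had a negative difference in 8 of 9 (median -0.12), at 7.32 to 7.41 in the knockout and 7.32 to 7.63 in wild type, with Dlk1 at -0.25 (SE 0.09) and Zic1 at -0.22 (SE 0.08). Those of the basolateral amygdala and cortex had a positive difference in 5 of 5 (median 0.20), at 8.15 to 8.24 in the knockout and 7.84 to 8.20 in wild type, with the vesicular glutamate transporter gene Slc17a7 at 0.24 (SE 0.09) and Mef2c at 0.20 (SE 0.09). Hippocampal markers, listed because dentate granule cells make dynorphin, had a negative difference in 4 of 5 (median -0.11), at 6.77 to 7.07 in the knockout and 6.96 to 7.15 in wild type. In the main fit (all 10 arrays, no weights, no block) no marker of these lists passed (limma adjusted p of 0.27 or more). With the replicate number as a block the limma adjusted p was 0.16 for Pmch and 0.155 for Oxt. No marker was at 0, and the part of the markers in the opioid genes' values was not tested.

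The other opioid precursor genes had negative differences of about the same size as Pdyn. Pnoc, the precursor of nociceptin, was at 6.45 ± 0.17 in the knockout and 6.71 ± 0.24 in wild type (SD, n = 5 each), a difference of -0.26 (SE 0.12, limma adjusted p = 0.701), at -0.16 without wild-type array 1 and at -0.07 as a median of probe sets. Pomc, the precursor of beta-endorphin, which is made chiefly in the hypothalamus, was at 5.79 ± 0.15 in the knockout and 6.01 ± 0.28 in wild type (SD, n = 5 each), a difference of -0.21 (SE 0.12, limma adjusted p = 0.746). Without wild-type array 5 the Pomc difference was -0.12, and without wild-type arrays 4 and 5 it was -0.03.

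The remaining genes of the pathway did not pass either. Of 7 peptide processing genes 0 passed, 6 with a positive difference and 1 with a negative one (median 0.03). Pcsk1n, an inhibitor of prohormone convertase 1, was at -0.21 (SE 0.09), and Pcsk2, prohormone convertase 2, at 0.27 (SE 0.13, limma adjusted p = 0.718). Of 7 peptide-degrading enzymes 0 passed (median -0.01), and so it was for 10 G protein subunits (median -0.01).

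Of 12 kinases, arrestins and other receptor regulators 0 passed (median 0.03). Gprasp1, a protein that sorts the delta receptor to degradation, was at 0.29 (SE 0.11), and Grk3, a receptor kinase, at 0.24 (SE 0.10). Of 13 effectors 0 passed, with 10 positive differences (median 0.08). An unadjusted limma p under 0.05 was reached by 4 of the 13, against 6.98% of all genes. The inward rectifier channel gene Kcnj9 was at 8.11 ± 0.12 in the knockout and 7.90 ± 0.03 in wild type (SD, n = 5 each), a difference of 0.21 (SE 0.07, limma adjusted p = 0.693). The calcium channel gene Cacna1e was at 9.66 ± 0.05 in the knockout and 9.47 ± 0.07 in wild type (SD, n = 5 each), a difference of 0.19 (SE 0.07, limma adjusted p = 0.693). A further calcium channel gene, Cacna1b, named after its values were seen, was at 9.08 ± 0.03 in the knockout and 8.93 ± 0.07 in wild type (SD, n = 5 each), a difference of 0.14 (SE 0.07, limma adjusted p = 0.711). In Kcnj9, Cacna1e and Cacna1b, 3 of the 13 effectors, all 5 knockout arrays lay above all 5 wild-type arrays. The genotypes did not overlap in 1.55% of all genes. The effector gene Kcnj6, also named after its values were seen, differed by 0.21 (SE 0.08, limma adjusted p = 0.693), and its genotypes overlapped.

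The 82 probe sets of the members show how far single parts of each gene agreed. A probe set covers about 1 exon. Of the 82, 64 lay above the intensity filter, with 14 of 16 for Oprl1, 20 of 36 for Oprm1 and all of those of Penk (6), Pdyn (6), Oprd1 (8) and Oprk1 (10). No probe set of a member passed among 628415 tested, where 0.00239% did, and the smallest limma adjusted p was 0.784. At an unadjusted limma p under 0.05 there were 4 of the 64, against 5.97% of all probe sets tested. Of the 64, 44 had a negative difference, against 49.7% of all.

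All 6 probe sets of Penk had a negative difference, from -0.54 to -0.12. The largest in size was probe set 4541621, at 6.75, 6.11, 5.96, 5.56 and 5.75 on knockout arrays 1 to 5, against 6.44, 6.53, 6.46, 6.52 and 6.89 on wild-type arrays 1 to 5. Its knockout array 1 lay above 4 of the wild-type arrays, and the other 4 knockout arrays below all of them. The difference was -0.54 (SE 0.21, limma adjusted p = 0.822). The brightest Penk probe set, 4482178, differed by -0.42 (SE 0.19, limma adjusted p = 0.838).

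Pdyn probe sets differed by -0.66 to 0.11, and 5 of 6 were negative. Probe set 4651398 had the smallest p of any member probe set in the limma fit, with 6.32, 6.42, 6.48, 6.12 and 5.97 on knockout arrays 1 to 5, against 7.41, 7.22, 6.97, 6.68 and 6.32 on wild-type arrays 1 to 5. Wild-type arrays 1 to 4 were above every knockout array and wild-type array 5 was level with knockout array 1. The difference was -0.66 (SE 0.21, limma adjusted p = 0.784). The brightest Pdyn probe set, 5375345, differed by -0.52 (SE 0.18, limma adjusted p = 0.806), and probe set 5424497 had the one positive difference, 0.11 (SE 0.23).

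Oprm1 is read by 36 probe sets whose means spanned 1.92 to 8.78, and the gene is known for many alternative exons. Of the 20 above the filter 14 had a negative difference (median -0.18), while of the 16 below it 10 had a positive one (median 0.20). The mean of all 36 gave a difference of -0.02 (exact two-sided permutation p = 0.833), against -0.14 over the 20. Probe set 5427125 differed by -0.27 (SE 0.14, limma adjusted p = 0.853), with knockout arrays at 8.31 to 8.63 and wild-type arrays at 8.60 to 8.94, and probe set 4798992 by 0.46 (SE 0.24, limma adjusted p = 0.856), or 0.28 without knockout array 3.

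Oprd1 probe sets differed by -0.33 to 0.18 and those of Oprk1 by -0.26 to 0.04, and none of either gene reached an unadjusted limma p of 0.05. The smallest p in Oprd1 was that of probe set 5490551, at -0.22 (SE 0.15), and on the positive side that of 4511831, at 0.18 (SE 0.26). The value of 4511831 ran from 0.03 without knockout array 4 to 0.35 without wild-type array 4. In Oprk1 they were those of probe set 4404224, at -0.26 (SE 0.24), and of 4940900, at 0.04 (SE 0.26). Without knockout array 4 the first was at -0.06, and without knockout array 3 at -0.43.

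Oprl1 held the one member probe set whose genotypes did not overlap, where that was so for 1.1% of probe sets above the filter and 0.949% of all. Probe set 4733651 was at 8.49, 8.18, 8.25, 8.38 and 8.26 on knockout arrays 1 to 5, against 7.90, 8.05, 8.13, 8.03 and 8.09 on wild-type arrays 1 to 5. Every knockout array was above every wild-type array, by a difference of 0.27 (SE 0.14, limma adjusted p = 0.849). Probe set 4452265 of Oprl1 pointed the other way, with 3.93, 6.10, 5.57, 5.93 and 4.85 on knockout arrays 1 to 5, against 5.97, 6.06, 6.11, 5.90 and 6.06 on wild-type arrays 1 to 5. Knockout arrays 1 and 5 were low, while the other 3 lay at 5.57 to 6.10, close to the wild-type range. The difference was -0.74 (SE 0.34, limma adjusted p = 0.837), and without knockout array 1 it was -0.40.

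**Figure D4:**
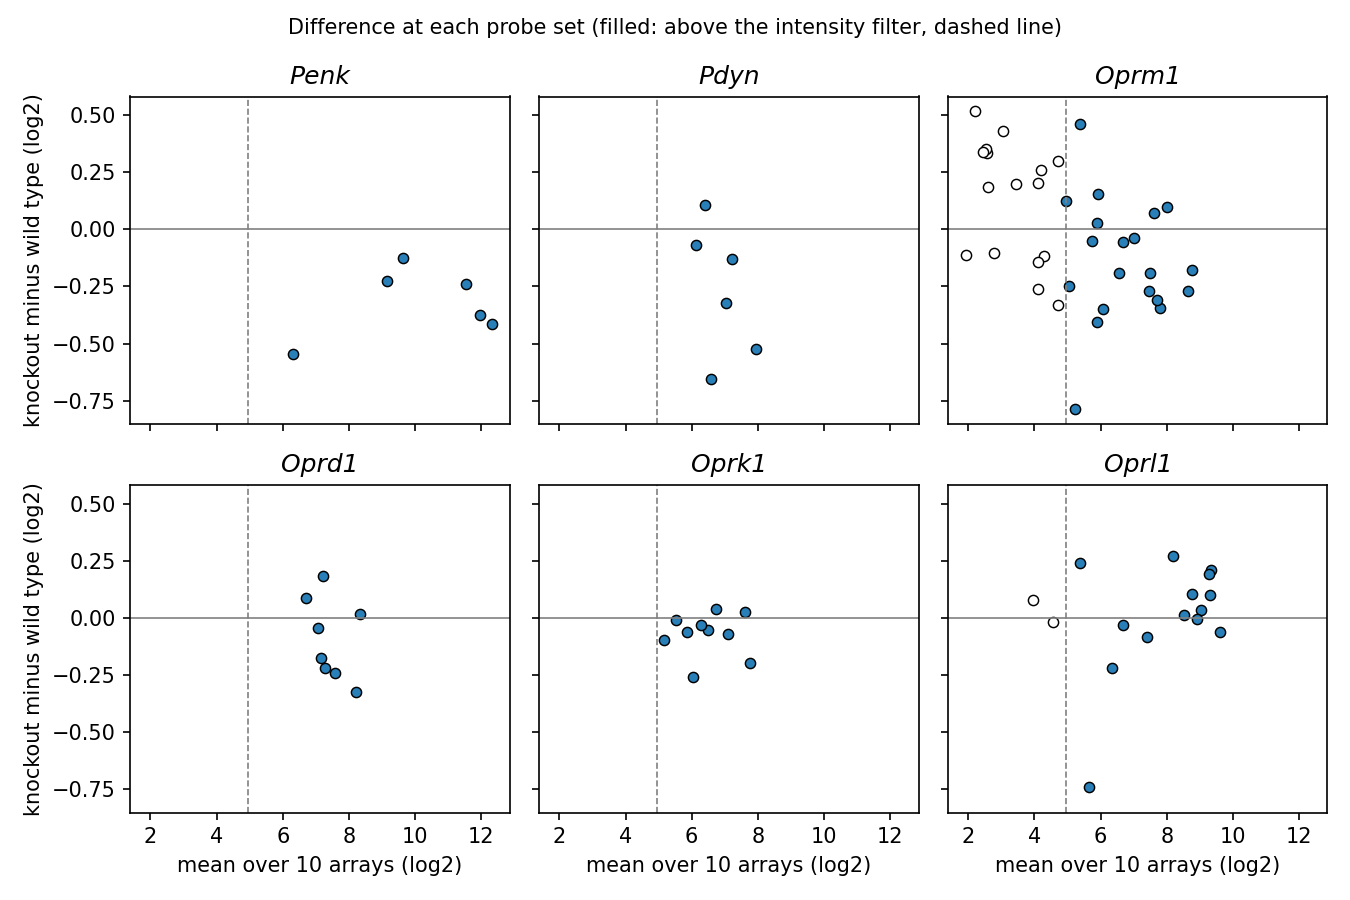
Difference (log2, knockout minus wild type, y axis) of each of the 82 probe sets against its mean over the 10 arrays (log2, x axis), filled where above the intensity filter at 4.94 (dashed line). All 6 Penk probe sets lie below 0, and Oprm1 probe sets below the filter lie mostly above 0.

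Relative use of exons, tested with limma's diffSplice (Simes p per gene, Benjamini-Hochberg over 16367 genes), passed in 0 of the 6 members, against 1.69% of all genes. Oprl1 had the smallest adjusted p, 0.311, led by probe set 4452265 at -0.80 relative to the rest of the gene, and without knockout array 1 that value was -0.46. The other 5 members had adjusted p-values of 0.836 or more. The mean over all probe sets of a member, with no filter, was set against every exact split of the arrays (two-sided), which cannot give a p under 0.00794. Penk had 0.0635, Pdyn 0.175, Oprd1 0.286, Oprk1 0.667, Oprm1 0.833 and Oprl1 0.952. Without knockout array 3 the p for Penk was 0.0238 (-0.40), and without wild-type array 3 that for Oprd1 was 0.0476 (-0.15), both unadjusted.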

How the data were processed

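RNA of the amygdala of 10 pools of mice was hybridised to GeneChip Mouse Exon arrays after depletion of ribosomal RNA, per the labels' protocols. The authors deposited 1 log2 value for each probe set on each array, from RMA in Expression Console, per the submitters' processing notes. The annotation's genome build and the versions used were not given in the sources used here. Names came from the platform annotation, with old symbols updated where 1 RefSeq gene holds the synonym. Genes with at least 3 probe sets above the median of all 1256831 probe sets were tested.

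The genotypes were compared in limma 3.58.1 under R version 4.3.3 (package data.table, version 1.17.8): lmFit and eBayes without trend or covariates, two-sided, Benjamini-Hochberg over all features tested. The scripts were tested on simulated data. The 6 genes, the pathway and marker lists, the tests and the alternatives were chosen with earlier results of these data known. Named besides the members are Klk8, up to 2 genes of smallest p in each direction per list, probe sets that passed, did not overlap or had a member's smallest p in either direction, and up to 3 genes of highest Pearson r per member. Penk probe set 4482178, Pdyn probe set 5375345 and Oprm1 probe sets 4654242 and 5324948 were named after their values were seen, as were Cacna1b and Kcnj6. No batch is given, and p-values measure the spread between arrays. Deviations from the genotype mean correlated between arrays of the same number at 0.0817 to 0.412, not above 0.1 for every number, so the numbers were not taken as pairs. The wild-type array most like each of knockout arrays 1 to 4 was nevertheless the one of the same number. For knockout array 5 it was wild-type array 4. A shared structure by number is therefore left in the main fit.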

Additional observations from a re-analysis of the deposited data

Results flagged for a closer look

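Dixon's test at the 95% level was run on 34 sets of 5 arrays. These were each member's gene level and each probe set named by the rule above, in each genotype. Probe sets named after their values were seen were not among them. Of the 34 sets, 2 held an array far from its group, where chance gives about 1 in 20 sets. At Penk probe set 4541621, wild-type array 5 was at 6.89, with the other wild-type arrays at 6.44 to 6.53. At Oprd1 probe set 5490551, wild-type array 3 was at 7.05, with the other wild-type arrays at 7.43 to 7.52. Each is 1 of several probe sets of its gene, and no member's gene level held such an array.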

How the results depend on the processing

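No member passed at the gene level in any of 21 other settings, at single probe sets in any of 18, or in exon use in any of 14. Over those settings Penk differed by -0.40 to -0.16 (adjusted p of 0.392 or more) and Pdyn by -0.44 to -0.17 (0.276 or more). Oprm1 differed by -0.20 to -0.02, the value nearest 0 without the intensity filter, and Oprd1 by -0.15 to -0.02. With the replicate number as a block, which is a shared number and not a known pairing, 0 members passed. The limma adjusted p-values were 0.392 for Penk and 0.36 for Pdyn. Unadjusted, they were 0.0221 and 0.00937, against 0.0488 and 0.0768 without the block. The exact test within pairs gave 0.125 for both, and with 5 pairs it cannot give a p under 0.05. Oprk1 at the gene level turned positive in the range -0.17 to 0.022 when 1 array was left out, and Oprl1 ran from -0.052 to 0.068. Oprl1 was also below 0 after quantile normalization again (-0.0076), without wild-type arrays 4 and 5 (-0.075) and with array weights (-0.0056). Over all probe sets of a member, leaving out 1 array gave -0.070 to 0.041 for Oprm1, -0.17 to 0.022 for Oprk1 and -0.049 to 0.083 for Oprl1, and 0 to 1 members with an exact p under 0.05. Pdyn probe set 5424497 ran from -0.045 to 0.22 and Oprk1 probe set 4940900 from -0.14 to 0.15 when 1 array was left out. That Oprk1 probe set was at -0.32 without wild-type arrays 4 and 5 and at -0.014 with array weights. The cause of these changes was not tested. With 5 arrays per genotype, a gene-level SE of 0.09 to 0.15 limits what can be seen in these 6 genes.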
